A study of Mus musculus with 4 samples.

Results

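The genes described here are 10 myeloid chemokine ligand genes of the mouse, chosen by name and by their place in a pair of gene clusters, out of 21887 protein-coding genes on the chromosomes. The 5 CXC genes Pf4, Ppbp, Cxcl1, Cxcl2 and Cxcl3 lie on chromosome 5, and the 5 CC genes Ccl2, Ccl3, Ccl4, Ccl6 and Ccl9 lie on chromosome 11. For each gene, the peaks of H3K27ac, a histone mark that active promoters and enhancers carry, were taken from 10 kb below its RefSeq span to 10 kb above it (build GRCm38.p6, the same assembly as mm10). All 10 genes were matched by symbol, and all 10 had a peak within this window in at least 1 library.

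The series set bone marrow cells carrying BRD9-NUTM1, labelled BN1, against control marrow cells. The fusion joins BRD9, a subunit of a chromatin remodelling complex, to NUTM1, which binds the acetyltransferase p300. The BN1 ChIP library is labelled as CD45.2+ bone marrow cells of C57BL/6 mice with the genotype cKit(+) BRD9-NUTM1, and the control ChIP library as the same cells with the genotype cKit(+). Both groups therefore share strain, tissue and the 2 surface markers, and each is represented by 1 peak list, so that none of the differences given here could be checked against replicates. The labels do not say how the fusion was driven, whether animals were pooled or how old they were.

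For every sample, controls included, the labelled extraction steps speak of cKit+ BN1 cells. Peak names inside the files also run against the sample titles, since those of the list assigned to the control begin with BRNU and those of the list assigned to BN1 begin with BM. Groups follow the titles, so every direction is that of a label. Both lists were therefore set against Kit, the gene of the labelled marker cKit, and against marker genes of cell types that the labels do not name. The gene of CD45 was not among the genes read. Whether the lists were swapped between titles was not tested by these values. Kit itself had no peak within 10 kb in either list. Of all 13606 protein-coding genes with a peak in either list, 70.7% had more length in the control-labelled list. Of 10 monocyte and macrophage marker genes, 0 had more peak length in the BN1-labelled list and 9 had more in the control-labelled list, with summed lengths of 11187 bp labelled BN1 and 44707 bp labelled control, and only Ccr2 was at 0 in both. Of 10 neutrophil markers, 8 had more length in the BN1-labelled list and 1 in the control-labelled list, with sums of 42410 bp labelled BN1 and 10146 bp labelled control, and only Elane was at 0 in both. Of 10 B cell markers, 9 were longer in the BN1-labelled list and 1, Ms4a1, in the control-labelled list. Their sums were 42342 bp labelled BN1 and 5205 bp labelled control, with none at 0 in both. Of 10 erythroid markers, 6 were longer in the BN1-labelled list and 2, Epor and Slc4a1, in the control-labelled list. Their sums were 9730 bp labelled BN1 and 5742 bp labelled control, with Gata1 and Alas2 at 0 in both. Megakaryocyte and platelet markers split evenly, with 4 of 10 longer in the BN1-labelled list and 4 longer in the control-labelled list (sums of 11084 bp labelled BN1 and 14693 bp labelled control), and Gp5 and Gp6 at 0 in both. Of 9 T and NK cell markers found in the table, 3 were longer in each list (sums of 10124 bp labelled BN1 and 10566 bp labelled control), with Cd3e, Cd8a and Ncr1 at 0 in both. Of 10 mast cell and basophil markers, 8 were at 0 in both lists, and the sums were 11798 bp labelled BN1, all at Hdc, and 444 bp labelled control. Of 10 stroma and endothelium markers, 4 were longer in the BN1-labelled list and 2 in the control-labelled list, with Col1a2, Col3a1, Cxcl12 and Lepr at 0 in both. Their sums were 3875 bp labelled BN1 and 4598 bp labelled control, of which 3212 bp labelled control were at Kdr. The part that a different mix of cell types plays in the values of the chemokine genes was not tested. In bulk chromatin, fewer cells carrying a mark and less of the mark per cell cannot be told apart.

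Chemokines are small secreted proteins that guide leukocytes by binding G protein-coupled receptors on their surface. CXC ligands of the Cxcl1, Cxcl2 and Cxcl3 type draw neutrophils through Cxcr2, whereas CC ligands such as Ccl2, Ccl3 and Ccl4 draw monocytes, macrophages and lymphocytes through receptors that include Ccr2 and Ccr1. Genes of a family arose by duplication and lie side by side, and in macrophages and neutrophils many of them are switched on rapidly by inflammatory signals through NF-kB. Pf4 and Ppbp are best known as products of megakaryocytes, which store them in platelet granules.

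Across the 10 windows, the acetylated length was shorter in the BN1-labelled list at 9 genes and longer at 1 gene, Cxcl3. No gene had a peak in the BN1-labelled list only, 3 genes (Pf4, Ppbp and Ccl2) had peaks in the control-labelled list only, and 7 had peaks in both. Over all 21887 protein-coding genes, 3.81% had a peak within 10 kb in the BN1-labelled list only, 8.15% in the control-labelled list only and 50.2% in both. At 0 of the 10 genes was the length labelled BN1 at least 2 times that labelled control, where 6.55% of all genes reached this or had peaks in the BN1-labelled list only. At 8 of the 10 genes the length labelled control was at least 2 times that labelled BN1 or stood alone, against 21.0% of all genes. All 10 genes had a peak, whereas these shares include genes without any. Among the 13606 genes with a peak in either list, 834 had peaks labelled BN1 only, 1784 labelled control only and 10988 both. Of the same 13606 genes, 1434 had at least 2 times the length labelled BN1 or peaks in that list only. For control this number was 4607. The counts over the 10 genes overstate the number of separate observations, because neighbouring windows share peaks: Pf4 and Ppbp hold the same pair, Cxcl1 and Cxcl2 share 7 peaks of the control-labelled list, and Ccl3 and Ccl4 share all of their peaks labelled BN1.

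The median difference over the 10 genes, BN1 minus control, was -3494.5 bp, and over the 13606 genes with a peak in either list it was -457 bp. The BN1-labelled list covered 19.1 Mb in all and the control-labelled list 31.0 Mb, a ratio of control over BN1 of 1.62. Scaled to bp per Mb of covered length, the medians were -86.3 for the 10 genes and 10.2 for all genes with a peak. On this scale 2 of the 10 genes, Cxcl3 and Ccl3, were longer in the BN1-labelled list. Of all 13606 genes, 70.7% had more bp labelled control, so a deficit in the BN1-labelled list was the more common direction in bp. Per Mb of covered length this turned round, with 7916 genes longer in the BN1-labelled list and 5690 longer in the control-labelled list.

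**Figure D1:**
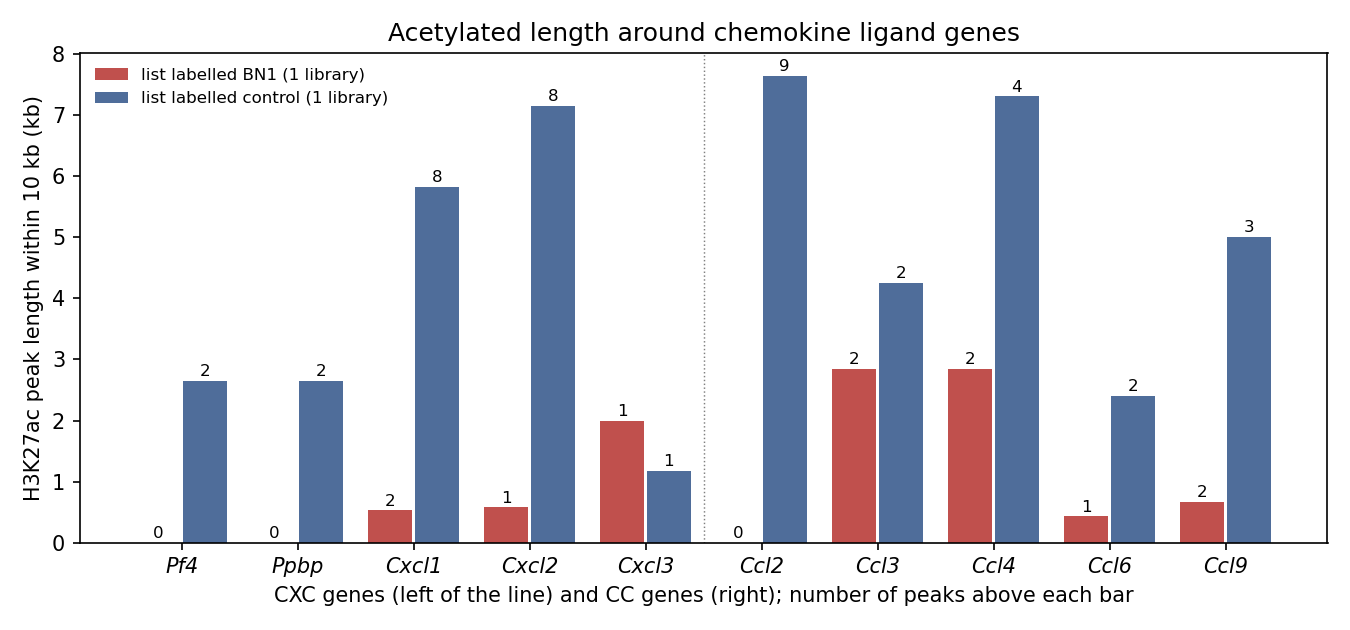
Length in kb covered by H3K27ac peaks within 10 kb of each gene, with the BN1-labelled list (red) left of the control-labelled list (blue) and the number of peaks above each bar. One library stands behind each colour, so there is no error bar. Pf4, Ppbp and Ccl2 have no peak in the BN1-labelled list, and Cxcl3 is the one gene whose red bar is the taller.

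Counting each base once, the CXC windows together held 2834 bp in 3 peaks labelled BN1 and 11348 bp in 11 peaks labelled control. The CC windows held 3935 bp in 5 peaks labelled BN1 and 20682 bp in 17 peaks labelled control. The length labelled control was thus 4.0 times that labelled BN1 in the CXC windows and 5.26 times in the CC windows. Peaks covered 3.91% of the joined windows in the BN1-labelled list and 18.5% in the control-labelled list.

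Of the 8 peaks labelled BN1 in all windows, 5 overlapped a peak labelled control by at least 1 bp, or 62.5% (exact 95% binomial interval 24.5 to 91.5), beside 62.6% over that whole list. Of the 28 peaks labelled control, 5 overlapped a peak labelled BN1, or 17.9% (6.06 to 36.9), beside 41.2% over that whole list. Where an overlap had to cover at least 50% of both peaks, 2 of the 8 peaks labelled BN1 (25%) and 2 of the 28 labelled control (7.14%) were shared. The shares of the whole lists under this stricter rule are not given here, so neither count has a background beside it. The intervals cover counting error only and treat peaks as independent. The 28 peaks labelled control lie in 5 joined windows, and peaks of 1 locus are not replicates. The intervals are therefore no test against the shares of the whole lists. In the CXC windows 29.7% of the length labelled BN1 and 7.41% of that labelled control was common to both lists, while in the CC windows these shares were 83.0% of the length labelled BN1 and 15.8% of that labelled control.

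The platelet chemokines Ppbp and Pf4 have the lowest coordinates of the 5 CXC members. Pf4 (chr5:90772435-90773383, plus strand), which encodes platelet factor 4, had no peak and 0 bp in the BN1-labelled list and 2 peaks with 2651 bp in the control-labelled list. The nearest peak labelled BN1 lay 16285 bp from its start. In the control-labelled list a peak of 1484 bp (chr5:90771794-90773277) covered the Pf4 start, all 300 bases of the promoter window and 843 of the 949 bp of the gene, with its summit 289 bp upstream of the start. Its fold enrichment, the authors' ratio of signal to background at the summit, was 12.4, and 78.2% of the peaks of that list were at or below this value. A second peak of 1167 bp (chr5:90777073-90778239, fold enrichment 9.10) had its summit 5158 bp downstream of the Pf4 start. Among the 1784 genes with peaks in the control-labelled list only, 380 had as much length as Pf4, which is itself among them.

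Ppbp (chr5:90768518-90770063, plus strand), the precursor of the platelet basic protein family, also had no peak labelled BN1, and the nearest one lay 20202 bp from its start. Its 2 peaks labelled control are those of Pf4. Neither touched the Ppbp gene, and the nearer one began 3276 bp downstream of its start. The Ppbp promoter itself was free of peaks in both lists.

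The promoters of this pair are shown because they lie side by side and only 1 of them is covered by a peak. The stretches run 5′ to 3′ on the plus strand, from 120 bases before the start to 20 bases after it (RefSeq, GRCm38.p6; chr5:90772315-90772454 for Pf4 and chr5:90768398-90768537 for Ppbp). Capitals mark matches to the searched motifs, here GAGGAA read on the other strand in Pf4 and TATAAA in Ppbp.
Pf4: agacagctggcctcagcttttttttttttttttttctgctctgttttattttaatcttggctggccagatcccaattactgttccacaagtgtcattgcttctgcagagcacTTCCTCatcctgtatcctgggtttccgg
Ppbp: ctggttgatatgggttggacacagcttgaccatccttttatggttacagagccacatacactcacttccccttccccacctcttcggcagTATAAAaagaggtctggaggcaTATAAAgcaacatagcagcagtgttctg
Ppbp held a TATA box match 30 bases before its start and a second one 8 bases before it. Pf4 held no TATAAA in its window, a PU.1 match from position -8 to -3, and a C/EBP match (TTGCNNAA) from -212 to -205.

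Cxcl3 (chr5:90786101-90788093, plus strand), a neutrophil-attracting ligand, was the gene with the opposite direction. It had 1 peak with 1993 bp in the BN1-labelled list and 1 peak with 1167 bp in the control-labelled list, a ratio of BN1 over control of 1.71. This direction depended on the flank: with 50 kb on either side the values were 1993 bp labelled BN1 and 4645 bp labelled control, and without flanks neither list had a peak. These were not the same region. The peak labelled BN1 (chr5:90788720-90790712, fold enrichment 11.5, at or above 72.1% of its list) began 627 bp past the upper end of the gene, with its summit 3544 bp downstream of the start. The peak labelled control is the one downstream of Pf4, with its summit 8508 bp upstream of the Cxcl3 start. Neither peak reached the Cxcl3 gene, so its promoter and body were without a peak in both lists. The peak labelled BN1 also lies within 10 kb of Cxcl15, a lung-expressed chemokine gene, which had 1993 bp labelled BN1 and none labelled control.

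**Figure D2:**
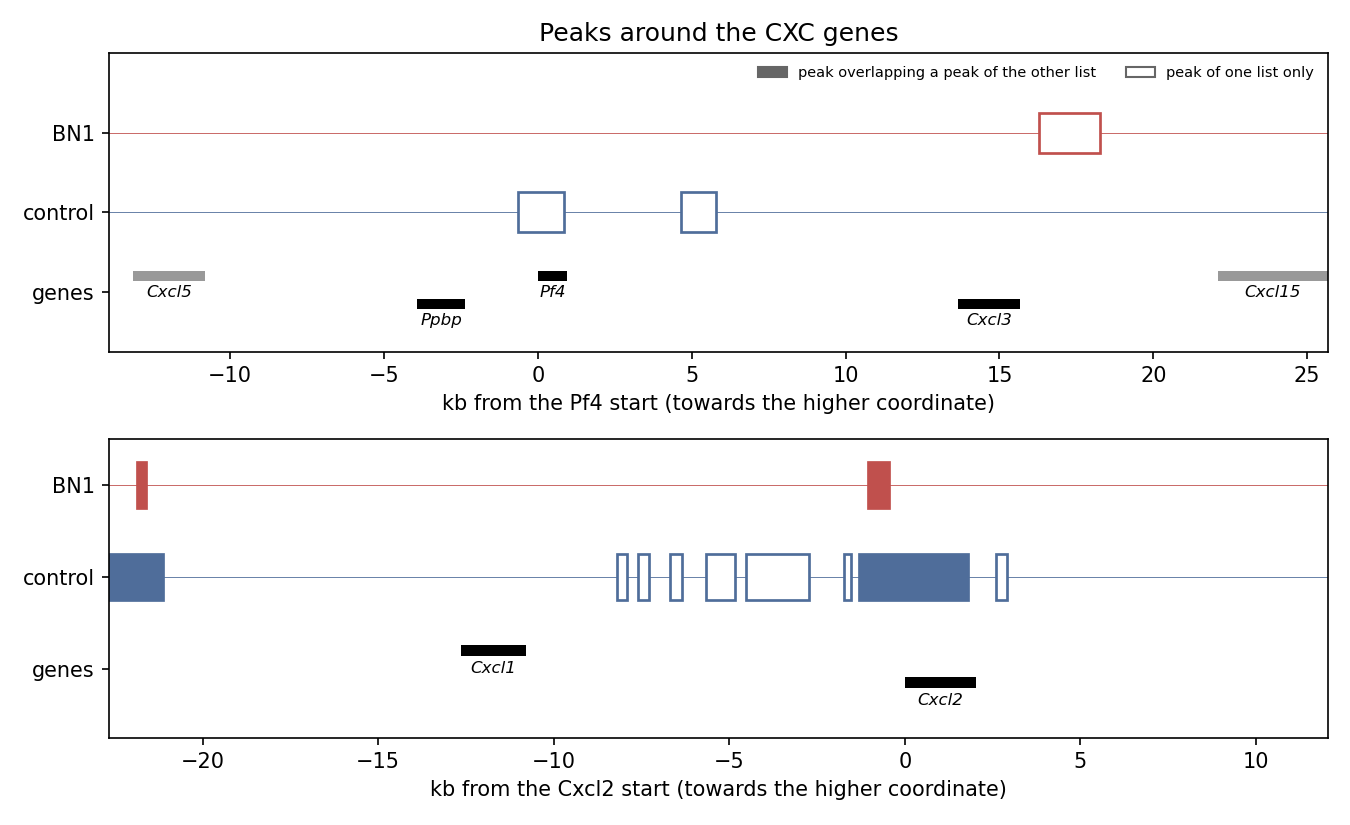
Peaks around the CXC genes, as distance in kb from the Pf4 start (upper panel) and from the Cxcl2 start (lower panel), with peaks of the BN1-labelled list above those of the control-labelled list and genes below (members black, others grey). Filled boxes overlap a peak of the other list. The Pf4 start is covered in the control-labelled list only, and none of the 6 peaks between Cxcl1 and Cxcl2 has a counterpart labelled BN1.

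Cxcl1 (chr5:90891245-90893121, plus strand) and Cxcl2 (chr5:90903899-90905938, plus strand), the main neutrophil attractants of the mouse, share a block of acetylation. Cxcl1 had 2 peaks with 526 bp in the BN1-labelled list and 8 peaks with 5826 bp in the control-labelled list. For Cxcl2 the values were 1 peak with 576 bp labelled BN1 and 8 peaks with 7158 bp labelled control. The length labelled control was 11.1 times that labelled BN1 at Cxcl1 and 12.4 times at Cxcl2. A difference as low as that of Cxcl2 (-6582 bp, BN1 minus control) was found at 3.54% of the 13606 genes with a peak, and as low as that of Cxcl1 (-5300 bp) at 5.28%.

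Both genes differ in where this acetylation sits. The Cxcl2 start was covered in the control-labelled list by a peak of 3095 bp (chr5:90902590-90905684, fold enrichment 18.2, at or above 89.8% of its list), the widest in any of the 10 windows, with its summit 106 bp downstream of the start. The corresponding peak labelled BN1 was 576 bp wide (chr5:90902861-90903436, fold enrichment 6.65), had its summit 863 bp upstream and ended 463 bp before the start. It lay wholly inside the peak labelled control. No peak of either list touched the Cxcl1 gene, and the nearest to its start lay 8957 bp away in the BN1-labelled list and 4470 bp away in the control-labelled list.

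Between Cxcl1 and Cxcl2, the control-labelled list held a further 6 peaks, none of them overlapping a peak labelled BN1. Their widths ran from 214 to 1799 bp. One of them (chr5:90898242-90899058, 817 bp) had the highest fold enrichment of any peak in the 10 windows, 25.5, at or above 96.0% of the peaks of its list, with its summit 5431 bp upstream of the Cxcl2 start. The other shared peak of the pair lay 9.10 kb upstream of Cxcl1, where a peak of 265 bp labelled BN1 (fold enrichment 3.96) fell inside one of 1918 bp labelled control (fold enrichment 12.8), with summits 9095 bp (labelled BN1) and 9103 bp (labelled control) upstream of the start. Beyond the window on that side, from 13.8 to 16.4 kb below Cxcl1, the control-labelled list held 2 more peaks, 1 of them 2207 bp wide with a fold enrichment of 20.9. The BN1-labelled list held none there.

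The promoters of Cxcl1, Cxcl2 and Cxcl3 are printed because they carry the same element although peaks covered only that of Cxcl2. Each stretch runs 5′ to 3′ on the plus strand from 120 bases before the start to 20 bases after it (RefSeq, GRCm38.p6; chr5:90891125-90891264, chr5:90903779-90903918 and chr5:90785981-90786120, in the order shown). Capitals mark GGANNTTCC, an NF-kB type motif, TATAAA in Cxcl3, and GAGGAA on the other strand near the end of Cxcl2.
Cxcl1: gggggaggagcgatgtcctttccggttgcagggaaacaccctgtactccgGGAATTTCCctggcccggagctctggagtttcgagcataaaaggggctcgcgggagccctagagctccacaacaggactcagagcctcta
Cxcl2: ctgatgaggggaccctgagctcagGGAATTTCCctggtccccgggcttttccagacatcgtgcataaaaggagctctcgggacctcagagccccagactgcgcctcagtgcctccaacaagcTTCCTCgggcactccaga
Cxcl3: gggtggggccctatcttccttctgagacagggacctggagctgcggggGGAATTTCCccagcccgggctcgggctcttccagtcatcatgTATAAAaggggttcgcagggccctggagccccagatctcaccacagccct
All 3 held GGAATTTCC on the gene's strand, at positions -70 to -62 in Cxcl1, -96 to -88 in Cxcl2 and -72 to -64 in Cxcl3. The motif was present in 4.26% of all 32851 promoter windows of 300 bases in the table and in none of the other 5 members searched (Pf4, Ppbp, Ccl3, Ccl6 and Ccl9). Cxcl1 and Cxcl2 also shared a run of 20 identical bases (GCACTCCAGACTCCAGCCAC) just after the start, beginning at position 31 in Cxcl1 and 11 in Cxcl2. Their windows were 58.7% and 60.7% G and C and that of Cxcl3 61.0%, above the median of 52.7% over all windows, whereas Pf4 stood at 43.3%.

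In the CC cluster, Ccl2 differed most. Ccl2 (chr11:82035577-82037452), the monocyte attractant MCP-1 and ligand of Ccr2, had no peak and 0 bp in the BN1-labelled list and 9 peaks with 7639 bp in the control-labelled list, or 34.9% of its window. The nearest peak labelled BN1 lay 320426 bp from the nearer end of the gene. A difference as low as this (-7639 bp) was found at 2.68% of the 13606 genes with a peak, and 66 of the 1784 genes with peaks in the control-labelled list only had as much length, Ccl2 included.

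One of these peaks (chr11:82035551-82036926, 1376 bp, fold enrichment 5.41) began 26 bp below the lower end of Ccl2 and covered 1350 bp of the gene. Within the window the highest fold enrichment, 10.1, was at a peak of 1533 bp that began 4845 bp past the upper end, and a peak of 1733 bp reached into the neighbouring Ccl7, another monocyte attractant. Stronger peaks of the same list stood outside the window on the lower side. From 10.9 to 37.8 kb below Ccl2 there were 10 peaks labelled control with 14343 bp and none labelled BN1, the widest of 4232 bp (chr11:82005899-82010130, fold enrichment 20.4, at or above 92.2% of its list). The peaks nearest to Ccl2 were thus not the strongest of the locus in that list.

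**Figure D3:**
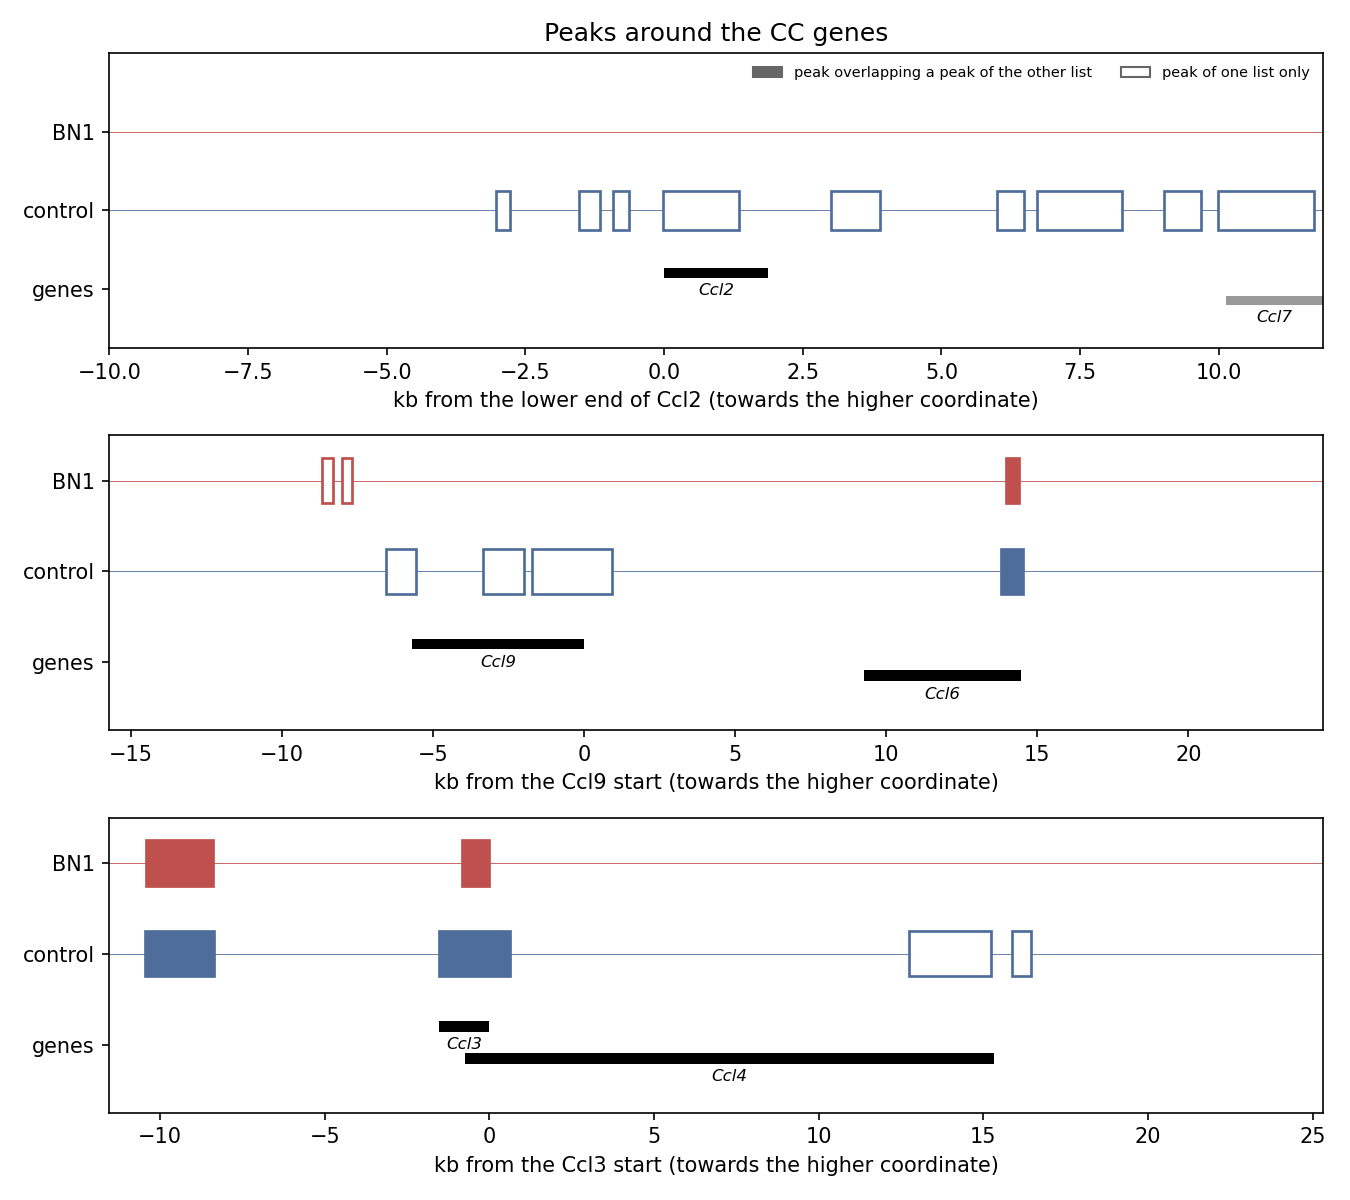
Peaks around the CC genes, as distance in kb from the lower end of Ccl2 (top), the Ccl9 start (middle) and the Ccl3 start (bottom), with the BN1-labelled list above the control-labelled list and genes below. Filled boxes overlap a peak of the other list. Ccl2 has 9 peaks labelled control and none labelled BN1. Overlapping peaks of both lists lie about 9 kb downstream of the Ccl3 start, over the Ccl3 gene and at the 5′ end of Ccl6. The peak labelled BN1 stops 7 bp short of the start at Ccl3 and 52 bp short at Ccl6.

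Ccl9 and Ccl6, rodent CC ligands of Ccr1 that are made by myeloid cells, lie next to each other on the minus strand. Ccl9 (chr11:83572917-83578636) had 2 peaks with 667 bp in the BN1-labelled list and 3 peaks with 5005 bp in the control-labelled list, and no peak was shared. The Ccl9 start was covered in the control-labelled list by a peak of 2653 bp (chr11:83576901-83579553, fold enrichment 13.1, at or above 80.3% of its list), with its summit 276 bp downstream of the start. The peaks labelled BN1 were 339 and 328 bp wide, with fold enrichments of 5.17 and 4.10, and lay beyond the 3′ end of the gene, 7691 bp or more from its start. All of the 3245 bp labelled control inside the gene therefore stood against 0 bp labelled BN1.

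Ccl6 (chr11:83587886-83593087) had 1 peak with 429 bp in the BN1-labelled list and 2 peaks with 2396 bp in the control-labelled list. Of these 2396 bp, 728 bp were at its own start and the rest belonged to the peak over the Ccl9 start. At the 5′ end of Ccl6 the lists held overlapping peaks, of which only the one labelled control covered the start, and the one labelled BN1 stopped 52 bp short of it inside the gene. The peak labelled BN1 (429 bp, fold enrichment 6.65) lay wholly inside the peak labelled control (728 bp, fold enrichment 7.73), with summits 198 bp (labelled BN1) and 97 bp (labelled control) downstream of the start. A further shared region began 11041 bp above Ccl6, just outside its window and inside the non-coding gene E230016K23Rik, with 2052 bp labelled BN1 and 1513 bp labelled control, of which 1063 bp were common.

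The Ccl9 stretch is shown because its start is covered in 1 list only, and that of Ccl3 because its start is the place where the peak labelled BN1 stops short. Both run 5′ to 3′ on the minus strand from 120 bases before the start to 20 bases after it (RefSeq, GRCm38.p6; chr11:83578617-83578756 for Ccl9 and chr11:83649359-83649498 for Ccl3). Capitals mark TATAAA matches that overlap on both strands and TGANTCA, the AP-1 motif, in Ccl9, and GAGGAA, the PU.1 motif, on the other strand in Ccl3.
Ccl9: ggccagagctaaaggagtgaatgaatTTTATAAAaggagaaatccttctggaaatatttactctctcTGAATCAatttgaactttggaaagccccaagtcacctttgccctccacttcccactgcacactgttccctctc
Ccl3: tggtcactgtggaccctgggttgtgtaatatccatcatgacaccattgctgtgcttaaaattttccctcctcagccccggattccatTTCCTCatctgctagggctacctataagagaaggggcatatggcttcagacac
The AP-1 match lay from -53 to -47 in Ccl9, and Ppbp held another from -204 to -198, outside the stretch printed. This motif was thus present in 2 of the 8 members searched and in 7.81% of all promoter windows. The PU.1 match lay from -33 to -28 in Ccl3, and this short motif was present in 28.3% of windows and in 3 of the 8 members, Pf4, Cxcl2 and Ccl3. TATAAA was present in 13.6% of all windows and in 3 of the 8 members searched (Ppbp, Cxcl3 and Ccl9), and TTGCNNAA in 10.8% and in 1 member, Pf4. Matches of different motifs did not overlap in these promoters, and a match is a string of letters, not a site shown to be bound. The Ccl6 window held none of the 5 motifs, but shared a run of 13 identical bases (GCCCTCCACTTCC) with Ccl9, at position -55 in Ccl6 and -14 in Ccl9.

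Ccl3 and Ccl4, the macrophage inflammatory proteins 1 alpha and 1 beta, attractants of monocytes and lymphocytes, lie side by side and share every peak labelled BN1 in their windows. Ccl3 (chr11:83647843-83649378, minus strand) had 2 peaks with 2839 bp in the BN1-labelled list and 2 peaks with 4250 bp in the control-labelled list, and all of them were shared. The length labelled control was 1.5 times that labelled BN1, below the 1.62 of the whole lists, and the difference per Mb of covered length, BN1 minus control, was 11.5. A region with its summit about 9 kb downstream of the Ccl3 start was nearly the same in both lists, with 2019 bp labelled BN1 (chr11:83638967-83640985, fold enrichment 21.8, at or above 88.2% of its list) lying wholly inside 2102 bp labelled control (fold enrichment 15.1, at or above 84.6% of its list). It was the strongest peak of the 10 windows in the BN1-labelled list.

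Over the Ccl3 gene itself the lists differed more. The peak labelled BN1 was 820 bp wide (chr11:83648552-83649371, fold enrichment 4.80) and ended 7 bp short of the start on the gene's side, covering 43 of the 300 bases of the promoter window. The peak labelled control was 2148 bp wide (chr11:83647848-83649995, fold enrichment 11.1) and covered all 300. In length within the gene, 820 bp labelled BN1 stood against 1531 bp labelled control.

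Ccl4 (chr11:83648624-83664683) is annotated with a span that begins inside Ccl3, so part of its window is that of its neighbour. It had 2 peaks with 2839 bp in the BN1-labelled list, which are those of Ccl3, and 4 peaks with 7310 bp in the control-labelled list. The 2 additional peaks labelled control lay at its upper end, 1 of 2483 bp inside the span (chr11:83662110-83664592, fold enrichment 8.61) that ended 91 bp short of that end, and 1 of 577 bp beyond it (fold enrichment 4.25). Neither had a counterpart labelled BN1. Ccl4 had the most acetylated length of the 10 genes in sum, but also the widest window, 36060 bp. As a share of its window, 20.3% was covered in the control-labelled list, below Ccl2 (34.9%), Cxcl2 (32.5%) and Cxcl1 (26.6%). By the summed absolute difference in bp over the 2 libraries, Ccl4 was most like Kif1b (2867 bp labelled BN1 and 7346 bp labelled control). Next came Mapk14 (2886 bp labelled BN1 and 7269 bp labelled control) and Ggta1 (2929 bp labelled BN1 and 7325 bp labelled control).

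**Figure D4:**
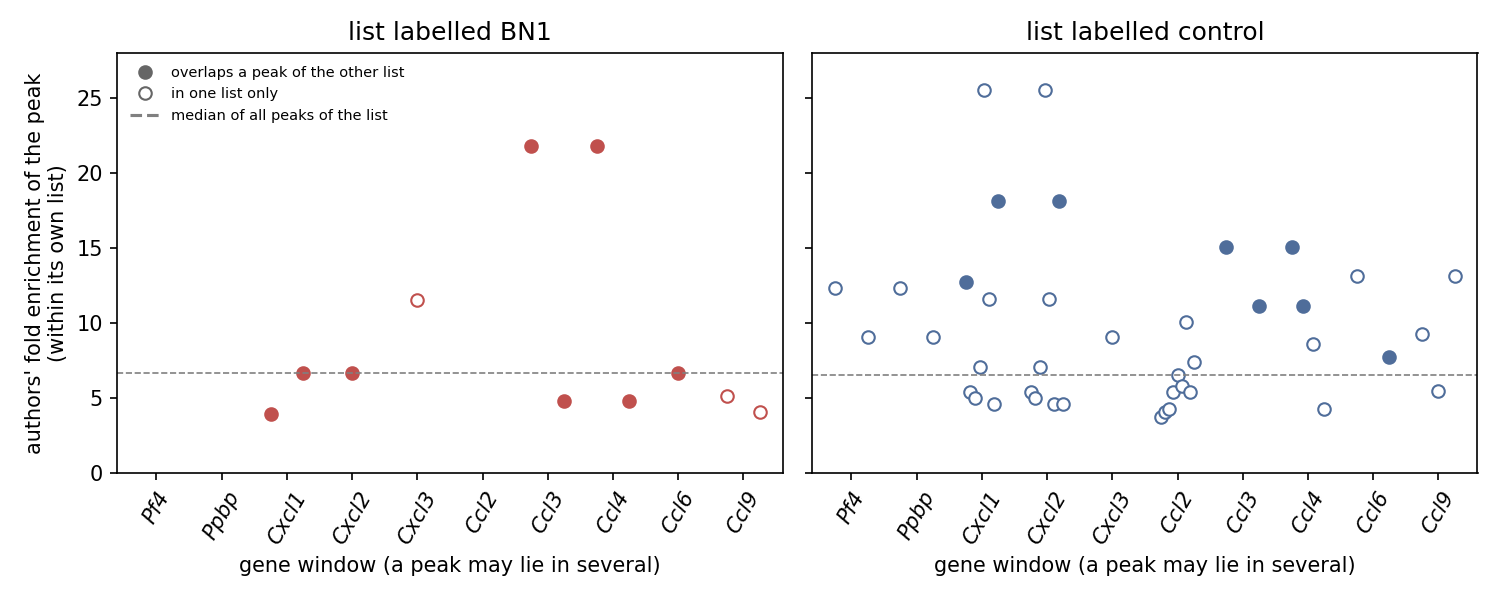
Fold enrichment of each peak in a gene's window as given by the authors, with the BN1-labelled list left and the control-labelled list right, filled where the peak overlaps one of the other list. The dashed line is the median of all peaks of that list (6.65 labelled BN1, 6.57 labelled control), and values are read within a list only. The highest peaks are the shared region near Ccl3 and Ccl4 (21.8) in the BN1-labelled list and the unshared region between Cxcl1 and Cxcl2 (25.5) in the control-labelled list.

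At the gene starts, the lists can be compared for the 8 members whose strand is known. The start itself was covered in the BN1-labelled list at 0 of them, with the nearest peaks 7 bp away at Ccl3, 52 bp at Ccl6 and 463 bp at Cxcl2. It was covered in the control-labelled list at 5 of them, namely Pf4, Cxcl2, Ccl3, Ccl6 and Ccl9. At the remaining 3, Ppbp, Cxcl1 and Cxcl3, it was covered in neither list, although each had peaks within 10 kb. The share of all gene starts covered in each list was not computed, so these counts have no background beside them. Coverage was read at the start base alone, so a peak that ended a few bases short counted as not covering it. The control-labelled list also covered 1.62 times the length of the other.

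Further chemokine ligand genes of chromosomes 5 and 11 were read by the same window. Not all of them lie beside the members. Cxcl9 (chr5:92321331-92328079), Cxcl10 (chr5:92346638-92348889) and Cxcl13 (chr5:95956939-95961068) lie at higher coordinates, outside the windows of the CXC members. Of the 11 found in the table, 1 had a peak in the BN1-labelled list only (Cxcl15), 5 in the control-labelled list only (Ccl1, Ccl5, Ccl7, Ccl11 and Ccl12), 0 in both and 5 in neither (Cxcl5, Cxcl9, Cxcl10, Cxcl13 and Ccl8). The shares over all protein-coding genes were 3.81% labelled BN1 only, 8.15% labelled control only and 50.2% in both. Ccl7 had 0 bp labelled BN1 and 7132 bp labelled control, most of it shared with the Ccl2 window, though 1589 bp fell inside the Ccl7 gene. Ccl12, a mouse monocyte attractant, had 0 bp labelled BN1 and 2257 bp labelled control, of which 910 bp were inside the gene. The interferon-induced ligands Cxcl9 and Cxcl10 had no peak in either list.

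The receptor genes differed in direction among themselves. Of 8 receptor genes, 2 had a peak in the BN1-labelled list only, 3 in the control-labelled list only, 1 in both and 2 in neither. Over all protein-coding genes, 3.81% had a peak labelled BN1 only, 8.15% labelled control only and 50.2% in both. Cxcr2, the neutrophil receptor of Cxcl1, Cxcl2 and Cxcl3, had 4835 bp labelled BN1 and none labelled control, the opposite direction to Cxcl1 and Cxcl2. Ccr1, a receptor of Ccl3, Ccl6 and Ccl9, was nearly even at 3801 bp labelled BN1 and 3437 bp labelled control, and Ccr2, the receptor of Ccl2, had no peak in either. Cxcr1 had 0 bp labelled BN1 and 1229 bp labelled control, none of it inside the gene. Cxcr3 had 0 bp labelled BN1 and 753 bp labelled control, of which 531 bp were inside the gene.

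**Figure D5:**
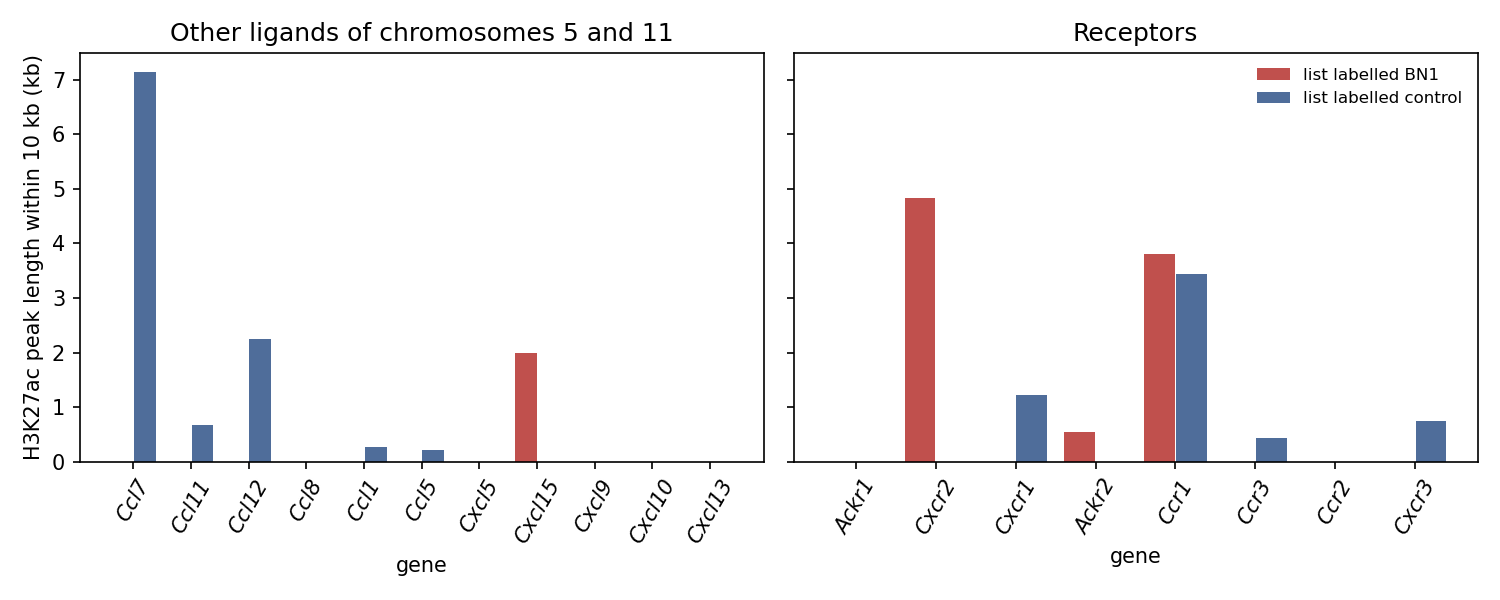
Length in kb covered by peaks within 10 kb of the other ligand genes of chromosomes 5 and 11 (left) and of receptor genes (right), with the BN1-labelled list left of the control-labelled list for each gene. Cxcr2 (4835 bp) is the tallest bar labelled BN1 and Ccl7 (7132 bp) the tallest labelled control, and genes without a bar have no peak.

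The NF-kB pathway, which drives many chemokine genes in activated myeloid cells, was acetylated in both lists. All 13 of its listed genes had a peak in both, with 3 longer in the BN1-labelled list and 10 longer in the control-labelled list, and a median difference, BN1 minus control, of -950 bp. Over all genes with a peak in either list, 70.7% were longer in the control-labelled one and the median was -457 bp, and 50.2% of all genes had peaks in both lists. Nfkbia, the inhibitor that NF-kB itself induces, had 2853 bp labelled BN1 and 5647 bp labelled control. Nfkb1, which encodes the p105 and p50 subunit, was longer in the BN1-labelled list, with 5688 bp against 2604 bp labelled control.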

How the data were processed

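H3K27ac was profiled by fanChIP, a form of chromatin immunoprecipitation, in 4 labelled samples: 2 ChIP libraries and 2 inputs. Each ChIP library has 1 deposited narrowPeak list; the inputs were not analysed here. The submitters' processing notes name Bowtie2 2.5.4, Picard 3.2.0, deepTools 3.5.1, MACS3 3.0.1 and mm10, with no role or order. The use of the inputs, any pooling and the threshold of peak calling were not given in the sources used here. The deposited columns give the authors' fold enrichment, which is a linear ratio, and −log10 values of each peak's p-value and q-value (lowest 1.30 labelled BN1, 1.32 labelled control), and a deposited score, which was within 1 unit of 10 times the −log10 q and was not used. Read depth is unknown, and it limits which weak peaks either list could hold.

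Covered length and peak numbers were computed per gene window with Python 3.11.15, numpy 2.4.6 and pandas 2.3.3, over all 21887 protein-coding genes of RefSeq GRCm38.p6, and the interval counts were tested on simulated data. Gene starts and promoter windows (250 bases before to 50 after the start) came from the RefSeq promoter table, which matched 8 of the 10 members; Ccl2 and Ccl4 are described by their gene ends. Motifs were searched on both strands. Exact intervals came from scipy 1.17.1. With 1 library a group no p-value was computed. Named genes were all 10 members, up to 6 other ligands or receptors by difference in bp, genes holding a peak of a window, and the 3 genes most like the longest member; markers, NF-kB, cytokine and other ligand genes named beside them were chosen after their values were seen. 1 receptor gene of the list is not reported here. Members and lists were chosen with earlier results of these data known. Alternatives were stricter −log10 q (5 and 10), lists of equal length, the top 10000 peaks, other flanks (0, 5 and 50 kb), 50% mutual overlap, and length per Mb.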

Additional observations from a re-analysis of the deposited data

How the results depend on the processing

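The length difference, BN1 minus control, kept its sign in both clusters under every alternative run. In the CXC windows (-8514 bp) it was -7992 bp at a −log10 q of at least 5, -8242 bp at 10, -7664 bp with lists of equal length, -6741 bp with the 10000 best peaks per list, -2629 bp without flanks, -6583 bp with 5 kb and -14066 bp with 50 kb flanks, and -217.5 bp per Mb of covered length. In the CC windows (-16747 bp) it was -15546, -12350, -15218, -8900, -8621, -12887 and -35615 bp and -460.7 bp per Mb, in the same order. The 7 genes with a peak in both lists became 3 at a −log10 q of 10, 2 with the 10000 best and 3 without flanks. The 3 genes with peaks in the control-labelled list only became 7 at a −log10 q of 10, 7 with the 10000 best and 1 with 50 kb flanks. The 0 genes with peaks in the BN1-labelled list only became 1, Cxcl3, with 5 kb flanks and with the 10000 best. Stricter or shorter lists hold fewer peaks and longer flanks more, by construction. Shares over all protein-coding genes are given for the deposited lists with 10 kb flanks only. The counts under the alternatives therefore have no background beside them. Cxcl3 turned with 50 kb flanks (1993 bp labelled BN1, 4645 bp labelled control). With 50% mutual overlap the share of shared peaks was 25% labelled BN1 (62.5% with 1 bp) and 7.14% labelled control (17.9% with 1 bp). Under the other alternatives it ran from 50% (1 of 2 peaks) to 71.4% (5 of 7) labelled BN1. For peaks labelled control it ran from 6.67% (1 of 15) to 23.8% (5 of 21). Shares of the whole lists are given only for the deposited lists and the 1 bp rule. Ccl2, Ccl3 and Ccl4 kept their pattern under all 7 alternatives of list and flank. No paired analysis was possible because each group has 1 peak list. Read depth is unknown, so a missing peak is not shown to be missing acetylation.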

Other observations

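Csf3, the gene of the granulocyte growth factor G-CSF, had 0 bp of peak length within 10 kb in the BN1-labelled list and 5068 bp in the control-labelled list, and Lif had 0 bp labelled BN1 and 1841 bp labelled control. None of the Csf3 length lay inside the gene, whereas all of the Lif length did. The cytokine genes Il1b (2248 bp labelled BN1, 2427 bp labelled control) and Tnf (5496 bp labelled BN1, 5885 bp labelled control) were nearly even, and Osm was longer in the BN1-labelled list (6438 bp, against 3058 bp labelled control). Il6, Il10, Il12b and Csf2 had no peak in either list. Over these 11 cytokine genes, 2 were longer in the BN1-labelled list, 5 in the control-labelled list and 4 were at 0 in both, so that 5 of the 7 with a peak were longer in the control-labelled list, beside 70.7% of all genes with a peak.

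Chemokine ligand genes elsewhere in the genome were mostly without peaks. Of 15 such genes, 9 had none in either list, 2 had one in the BN1-labelled list only, 1 in the control-labelled list only and 3 in both. Of all 21887 protein-coding genes, 13606 had a peak in either list. The shares over all genes were 3.81% labelled BN1 only, 8.15% labelled control only and 50.2% in both. Cxcl16, a ligand that is also a scavenger receptor of macrophages, had 2151 bp labelled BN1 and 5818 bp labelled control, none of it inside the gene. Ccl17 had 0 bp labelled BN1 and 1600 bp labelled control, all of it outside the gene. Cxcl12, which marrow stromal cells are known to make, had no peak in either list.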
